A study of Mus musculus with 6 samples.

Results

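The genes described here encode SR proteins, the Tra2 proteins, hnRNP proteins, and the CLK and SRPK kinases that phosphorylate SR proteins. They were chosen by symbol alone (Srsf, Hnrnp, Tra2a or Tra2b, Clk1 to Clk4, Srpk1 to Srpk3), and 40 of the 27179 genes in the expression table matched. These were 11 SR genes, 2 Tra2 genes, 20 hnRNP genes, 4 CLK genes and 3 SRPK genes. RNA was sequenced from B16F10, a mouse melanoma cell line of wild-type genotype by its label, after 6 h in medium with 0.01% ozonated olive oil (OZO, 3 libraries) or 0.01% of its precursor olive oil (OLO, 3 libraries). Every level given here is 1 average over all 6 libraries, so it has no replicate error and does not separate the oils. The columns of the table that compare OZO with OLO were left out by choice, and the oils were not compared here.

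Pre-mRNA splicing is steered by proteins that bind exons and introns near the splice sites. SR proteins carry RNA recognition motifs and a tail rich in arginine and serine, and they commonly favour the use of an exon to which they bind. hnRNP proteins coat nascent RNA and often oppose exon use, although both families can act either way depending on where they bind. SRPK kinases phosphorylate SR proteins mainly in the cytoplasm, which allows nuclear import, and CLK kinases phosphorylate them further in the nucleus and release them from speckles. Many genes of these families limit their own protein by splicing in an exon that carries a premature stop codon, which sends the mRNA to nonsense-mediated decay.

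A level is the geometric mean over the 6 libraries in CPM, the reads of a gene scaled to a library of fixed size, obtained from the average log2 CPM of the table. An average library held 19641946 reads (geometric mean), and a gene at 1 CPM thus had 19.6 reads in it. CPM orders genes by their reads, which also follow transcript length. Of all genes, 21154 had reads and 11878 reached 1 CPM, which was 56.2% of the genes with reads. All 40 members had reads and 38 reached 1 CPM. Their median level was 239 CPM, against a median of 2.73 CPM for genes with reads and 31.6 CPM for genes at 1 CPM or more. The median member stood at the 96.3rd percentile of genes with reads, with 30 members in the top 10% and 7 in the top 1%. Members made up 0.189% of the genes with reads and 1.47% of the summed CPM of all genes. The labelled cell type was checked against marker genes: all 7 melanocyte markers reached 1 CPM (109 to 7052 CPM, Dct highest), whereas none of 4 keratinocyte and none of 5 leukocyte markers did. Of the fibroblast markers 3 of 5 reached it (Pdgfra at 3.28, Col1a1 at 1.70 and Col1a2 at 1.15 CPM), as did 1 of 3 endothelium markers, Pecam1 at 1.21 CPM.

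**Figure D1:**
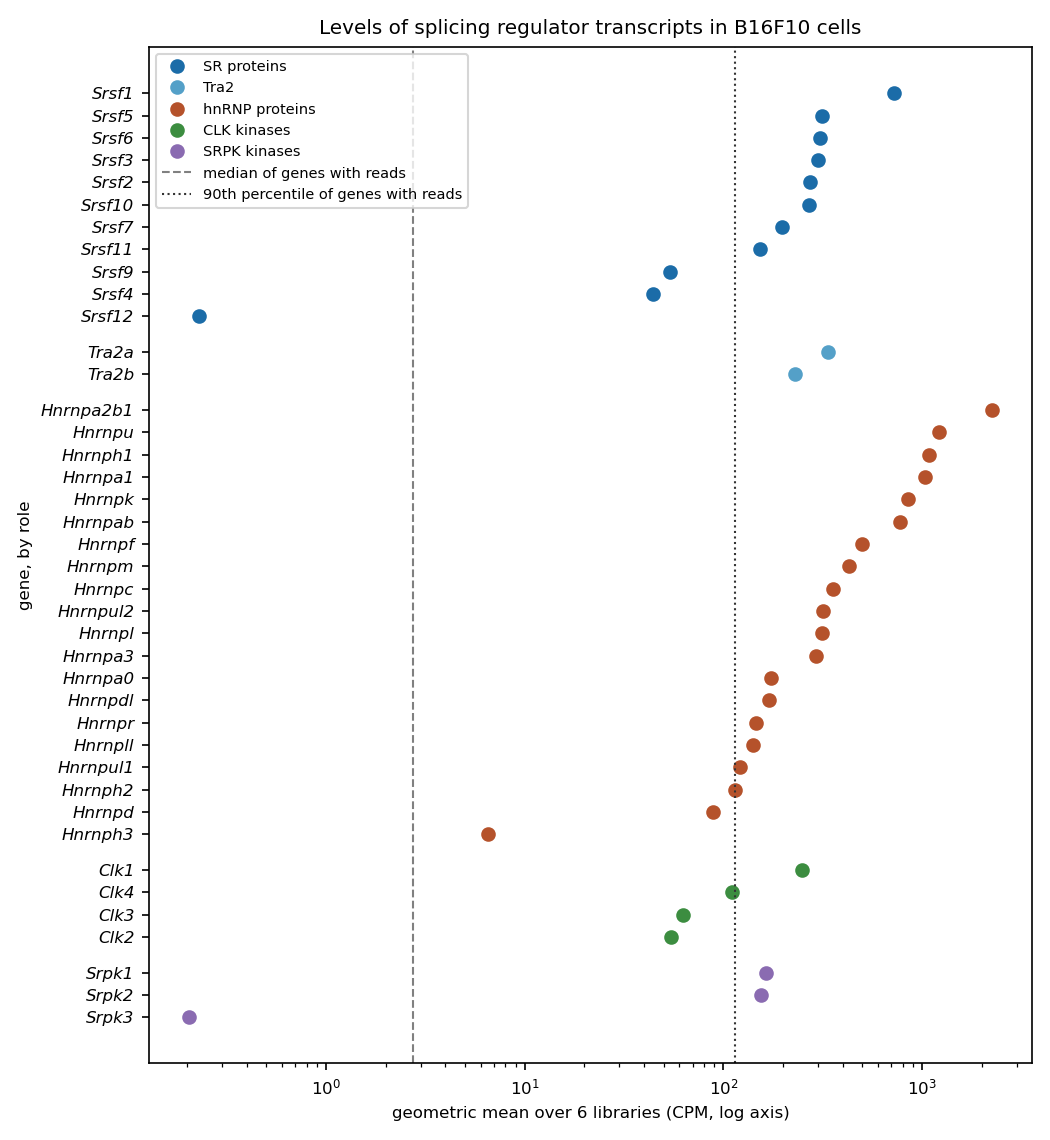
Level of each of the 40 genes as the geometric mean over 6 libraries (CPM, log axis), with 1 point per gene, grouped by role and without error bars because only the average is used. Dashed and dotted lines mark the median (2.73 CPM) and the 90th percentile (115 CPM) of genes with reads; Hnrnpa2b1 lies farthest to the right at 2243 CPM, and Srpk3, Srsf12 and Hnrnph3 stand apart on the left.

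The SR proteins ranged from 0.231 to 722 CPM, with a median of 270 CPM, and together held 18.3% of the summed level of all members. Srsf1, the founding SR protein, had the most reads at 722 CPM. Srsf5 had 315 CPM and Srsf6 had 306 CPM, both relatives of Srsf4 with a pair of RNA recognition motifs. Srsf3, the smallest SR protein, had 298 CPM, and Srsf2, which marks nuclear speckles, had 272 CPM. Srsf10, which represses splicing when it loses its phosphates in heat shock, had 270 CPM. Srsf7, which carries a zinc knuckle, was at 197 CPM, and the SR-related Srsf11 at 153 CPM. Srsf9, the closest relative of Srsf1, was at 53.8 CPM, and Srsf4 was at 44.2 CPM. Srsf12, a relative of Srsf10, was at 0.231 CPM, or 4.53 reads per library with the added 0.5 read included. The spread of a gene between libraries is not part of these averages, so the order of close neighbours such as Srsf2 and Srsf10 cannot be told.

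Both Tra2 proteins, which bind GAA-rich exon enhancers, were well represented: Tra2a had 336 CPM and Tra2b had 229 CPM.

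To compare transcript levels between genes, CPM was divided by length, here the joined exons of all annotated transcripts. On that length Srsf1 was first among the SR proteins at 126 CPM per kb, followed by Srsf2 at 92.1 CPM per kb and Srsf5 at 78.9 CPM per kb. This order turned with other lengths: with the longest transcript Srsf2 (143 CPM per kb) passed Srsf1 (135 CPM per kb), and with the longest protein-coding transcript Srsf5 (201 CPM per kb) passed both. Srsf3, which has 7899 bp of joined exons, was at 37.7 CPM per kb. The short Srsf9, with 1653 bp, was at 32.6 CPM per kb, so that the ratio of Srsf1 to Srsf9 was 3.88 per kb and 13.4 without length. Tra2a exceeded Tra2b 1.95-fold per kb, and 2.77-fold with the longest protein-coding transcript. Srsf10 exceeded Srsf12 526-fold per kb and 915-fold with either transcript length, ratios that rest on the few reads of Srsf12.

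The levels of SR and Tra2 genes may merge mRNAs that encode protein with mRNAs annotated as targets of nonsense-mediated decay, because the table has 1 value per gene. In the GENCODE M21 annotation, 9 of 11 SR genes and both Tra2 genes had at least 1 transcript of the decay class. A cassette exon that brings the premature stop was found in 5 SR genes (Srsf3, Srsf4, Srsf7, Srsf9 and Srsf11) and in both Tra2 genes. Such an exon was defined as an internal exon that holds the stop codon of a decay transcript and overlaps no exon of any protein-coding transcript of the gene. The stretches below show what these exons add to the reading frame. Each runs 5′ to 3′ on the strand of the gene, from the first base of the exon to the premature stop, which is in capitals, for exons of transcripts annotated in full in GRCm38 (the assembly also named mm10).
Srsf3: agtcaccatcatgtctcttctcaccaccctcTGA
Srsf7: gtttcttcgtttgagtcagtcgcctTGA
Srsf11: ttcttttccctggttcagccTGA
Tra2a: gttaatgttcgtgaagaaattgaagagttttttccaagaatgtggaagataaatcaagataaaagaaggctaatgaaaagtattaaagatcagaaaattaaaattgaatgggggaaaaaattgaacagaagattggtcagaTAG
Tra2b: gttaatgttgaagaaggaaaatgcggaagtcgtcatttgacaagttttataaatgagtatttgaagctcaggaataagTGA

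The Srsf3 exon lies at chr17:29039454-29039909 on the plus strand and is 456 bp long, but only its first 34 bases are read before translation stops. The Srsf7 exon at chr17:80204622-80205081, minus strand, is 460 bp long with the stop within the first 28 bases. The Srsf11 exon shown, 1 of 2 in that gene, at chr3:158024123-158024231, minus strand, has 109 bp and stops after 23 bases. The Tra2a exon at chr6:49252803-49253108 (minus strand, 306 bp) and the Tra2b exon at chr16:22258986-22259261 (minus strand, 276 bp) open with the same letters, gttaatgtt, and stop after 144 and 81 bases. The exons of Srsf4 and Srsf9 and the other Srsf11 exon (chr3:158023243-158023359, minus strand, 117 bp) come from transcripts annotated as incomplete and are not shown. How many reads fell on any of these exons was not analysed here.

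The hnRNP proteins ranged from 6.51 to 2243 CPM, with a median of 314 CPM, and held 72.2% of the summed level of all members. The 4 members with the highest CPM were all hnRNP genes and made up 38.9% of that sum. Hnrnpa2b1, an exon repressor of the A/B family that also sorts RNAs, led with 2243 CPM. Hnrnpu, which binds chromatin as well as RNA, had 1211 CPM. Hnrnph1, which binds runs of G, had 1089 CPM, and Hnrnpa1, the best known exon repressor, had 1036 CPM. Hnrnpk, which binds runs of C, had 846 CPM. Hnrnpab, of the A/B and D group, had 774 CPM.

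A middle group followed. Hnrnpf, a relative of Hnrnph1, had 498 CPM, and Hnrnpm, which binds GU-rich RNA, had 426 CPM. Hnrnpc, which binds runs of U, had 358 CPM. Hnrnpul2, related to Hnrnpu, had 316 CPM. Hnrnpl, which binds CA repeats, had 312 CPM, and Hnrnpa3 had 291 CPM. The other members of the family had fewer reads: Hnrnpa0 at 174 CPM, Hnrnpdl at 170 CPM, Hnrnpr at 147 CPM, Hnrnpll at 141 CPM, Hnrnpul1 at 121 CPM, Hnrnph2 at 115 CPM and Hnrnpd, which binds AU-rich elements and promotes mRNA decay, at 88.6 CPM. Hnrnph3 stood apart at 6.51 CPM, or the 55.2nd percentile of genes with reads, whereas the other 37 members that reached 1 CPM lay at the 76.7th percentile or above.

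Per kb of joined exons, Hnrnpa2b1 was at 341 CPM per kb, Hnrnpa1 at 328 CPM per kb and Hnrnpab at 278 CPM per kb, the 3 highest of all members on that length. The nearness of Hnrnpa2b1 and Hnrnpa1 belongs to that length alone: they were at 615 and 332 CPM per kb with the longest transcript and at 1298 and 540 CPM per kb with the longest protein-coding transcript, where Hnrnph1 (449 CPM per kb) also passed Hnrnpab (326 CPM per kb). Hnrnpu, with 11599 bp of joined exons, went from the second place by CPM to the eighth at 104 CPM per kb. Hnrnpr, with 22199 bp, was at 6.61 CPM per kb, which placed it at 37 among the 40 genes. Its longest annotated transcript, which is protein-coding, has 21452 bp, so every length tried for Hnrnpr rests on that transcript. Whether these cells express that form was not tested. Across the 40 genes the orders by CPM and per kb had a Spearman correlation of 0.90, a description in which both measures share the same reads, and 9 of the 10 highest by CPM were also among the 10 highest per kb.

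**Figure D2:**
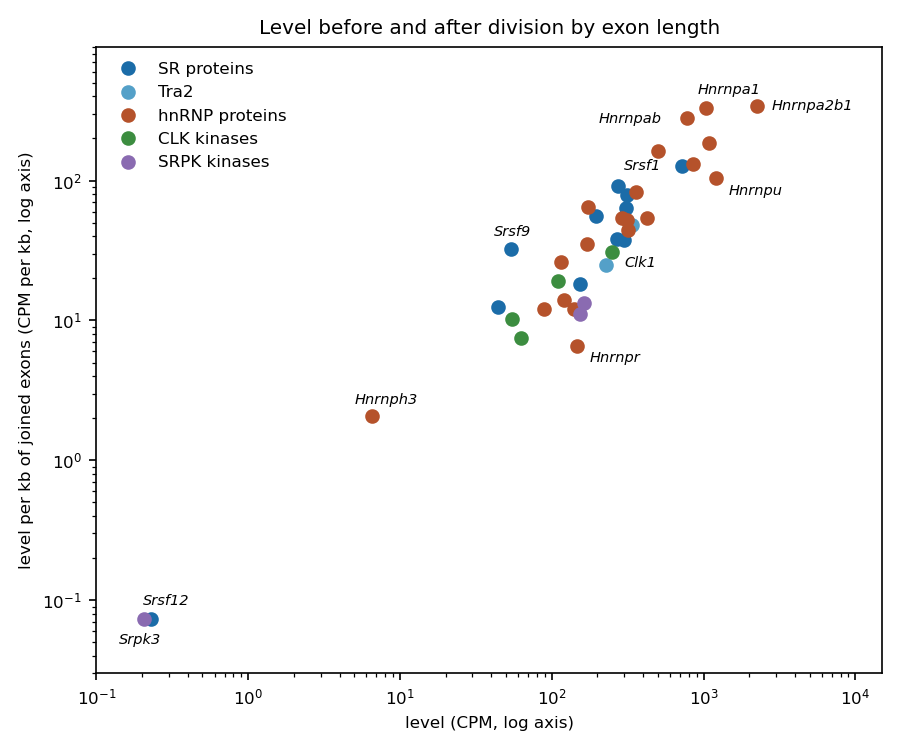
Level of each of the 40 genes (CPM, log axis) against the same level divided by the length of its joined exons (CPM per kb, log axis), with 1 point per gene coloured by role. Hnrnpa2b1 and Hnrnpa1 lie at nearly the same height on this length (341 and 328 CPM per kb, but 615 and 332 with the longest transcript), and Srsf9 lies above and Hnrnpr below genes of like CPM.

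Closely related hnRNP genes differed in level. Hnrnph1 exceeded Hnrnph2 7.11-fold per kb, and Hnrnpa1 exceeded Hnrnpa3 6.09-fold. Hnrnpa2b1 exceeded Hnrnpa0 5.24-fold per kb, and Hnrnpl exceeded Hnrnpll, known from lymphocytes for its part in Ptprc splicing, 4.36-fold. Hnrnpd was the lower of its pair, with 0.341 times the level of Hnrnpdl per kb. The sizes of these ratios depend on the length used. With the longest protein-coding transcript they were 15.6 for Hnrnph1 over Hnrnph2, 9.55 for Hnrnpa1 over Hnrnpa3, 20.0 for Hnrnpa2b1 over Hnrnpa0 (9.46 with the longest transcript), 2.58 for Hnrnpl over Hnrnpll and 0.21 for Hnrnpd over Hnrnpdl. The direction was the same under every length tried in these and the other pairs of related members, 10 in all.

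Decay transcripts were annotated for 10 of the 20 hnRNP genes, and cassette exons with a premature stop for Hnrnpl and Hnrnpll. The exon of Hnrnpll is shown because its transcript is annotated in full. It lies at chr17:80044940-80045022 of GRCm38 on the minus strand and is 83 bp long, with the stop in capitals at the end of its first 47 bases.
Hnrnpll: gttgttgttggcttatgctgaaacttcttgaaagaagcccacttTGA

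Retained introns were annotated in 14 of the 20 hnRNP genes. Hnrnpk had the most annotated transcripts of any member, 34, of which 18 were protein-coding, 3 of the decay class and 13 with a retained intron. Hnrnpa0 had 1 transcript, protein-coding.

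The CLK kinases ranged from 54.5 to 249 CPM, with a median of 86.7 CPM, and held 3.32% of the summed level of the members. Clk1 was at 249 CPM and Clk4, its closest relative, at 110 CPM. Clk3 was at 63.0 CPM and Clk2 at 54.5 CPM. Per kb of joined exons Clk2 was at 10.3 and Clk3 at 7.45 CPM per kb, below Clk4 at 19.0 and Clk1 at 30.6 CPM per kb. Clk2 and Clk3 had nearly equal values, 25.3 and 25.2 CPM per kb, with the longest protein-coding transcript. Clk1 exceeded Clk4 1.61-fold per kb of joined exons and 2.45-fold with the longest protein-coding transcript.

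CLK mRNAs are known to be kept in the nucleus with unspliced introns and to be spliced when kinase activity is needed. In the annotation all 4 CLK genes had transcripts with a retained intron, but so had 88.4% of the protein-coding genes at 1 CPM or more with at least 9 transcripts, and the CLK genes had 9 to 14. Clk1 and Clk4 each had 7 such transcripts, beside 1 protein-coding transcript of Clk1 and 4 of Clk4. All 4 also had transcripts of the decay class, and none had a cassette exon with a premature stop by the definition above. The level of 249 CPM for Clk1 therefore cannot be read as that of its protein-coding mRNA.

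Of the SRPK kinases, Srpk1 had 164 CPM and Srpk2 had 155 CPM. Srpk3, a kinase known from skeletal muscle, had the fewest reads of all 40 genes, at 0.205 CPM or 4.03 reads per library with the added 0.5 read included. Per kb of joined exons it and Srsf12 were alike at 0.0737 and 0.0733 CPM per kb. Srpk1 and Srpk2 are long, with 12376 and 13901 bp of joined exons, and stood at 13.2 and 11.1 CPM per kb. The median of the SRPK genes was 11.1 CPM per kb, against 14.7 for the CLK genes, 38.5 for the SR genes, 36.6 for the Tra2 genes and 53.8 for the hnRNP genes. With the longest protein-coding transcript the Tra2 median (127 CPM per kb) exceeded that of the hnRNP genes (86.7 CPM per kb). The median over all genes at 1 CPM or more that had a length was 7.26 CPM per kb.

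**Figure D3:**
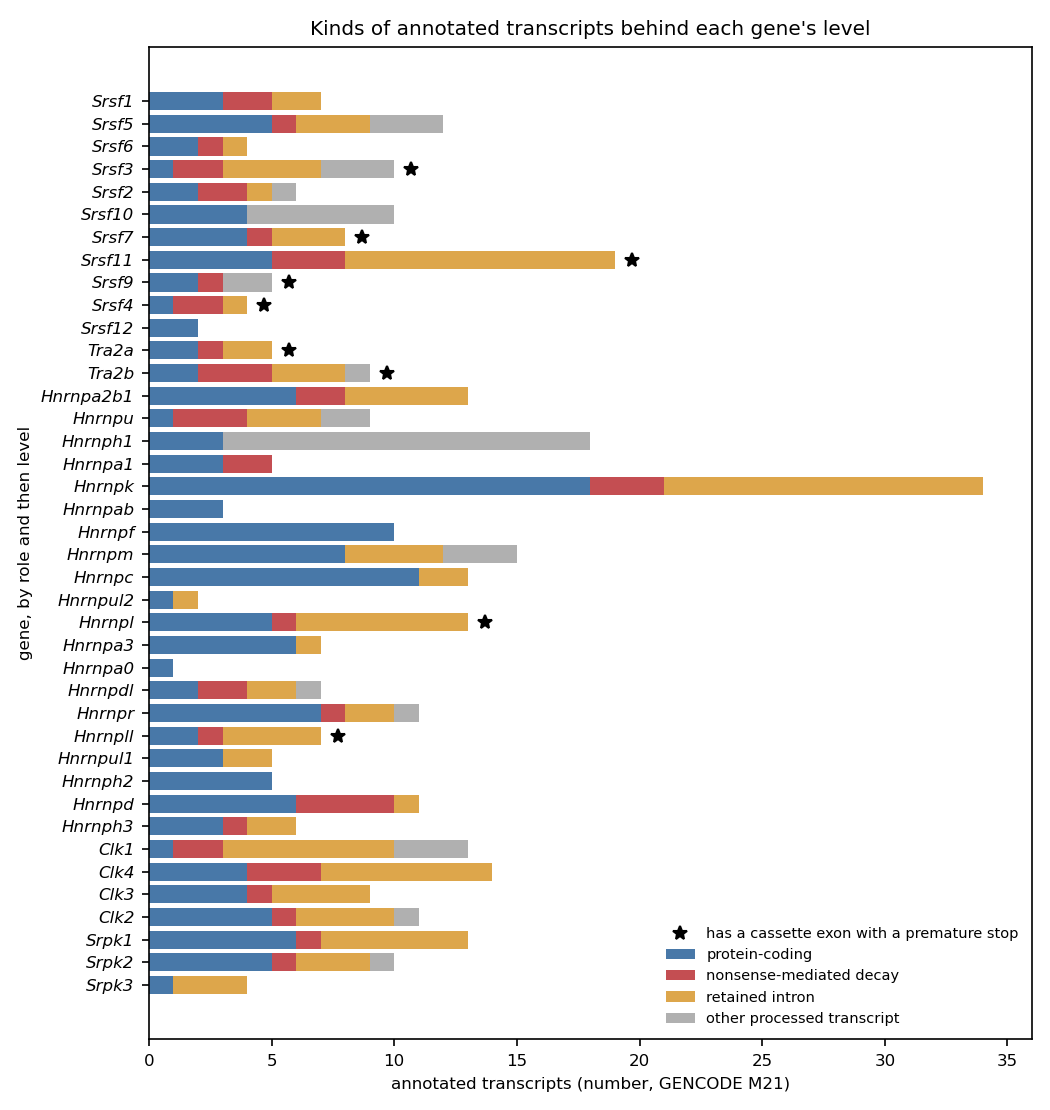
Number of annotated transcripts of each kind (GENCODE M21) for the 40 genes, as stacked bars ordered by role and then by level, with a star for genes that have a cassette exon with a premature stop. Red parts (nonsense-mediated decay) occur in 27 of the 40 genes and stars in 9, and Hnrnpk has the longest bar with 34 transcripts.

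Over all roles, 27 of the 40 members (67.5%) had a decay transcript, 31 (77.5%) a retained intron and 9 (22.5%) a cassette exon with a premature stop. Among the 38 members at 1 CPM or more these shares were 71.1%, 78.9% and 23.7%. They were 30.2%, 61.5% and 7.99% among the 11180 protein-coding genes at 1 CPM or more. Members had a median of 9 annotated transcripts and those genes a median of 5. Among the 2602 protein-coding genes with at least 9 transcripts, the shares were 56.2%, 88.4% and 15.3%. The shares describe the annotation, not the RNA of these cells.

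Promoters were examined as 250 bases before and 50 bases after the start given by RefSeq, on GRCm38.p6. This was done for the 37 members with an entry (Clk1, Hnrnpul2 and Hnrnpll had none matched). Where a gene had several starts, only the start farthest upstream was used, and the others were not examined. Of these, 34 (91.9%) had CG pairs at 0.6 or more of the number expected from their C and G content, with a median ratio of 0.95. Among the 35 with at least 1 CPM the share was 94.3%. It was 76.1% of the 9373 genes at 1 CPM or more with an entry and 25.5% of the 5881 genes with reads under 1 CPM. The members under the limit were Hnrnpf (0.38), Srpk2 (0.48) and Srpk3 (0.21). The members with the highest and the lowest CPM are shown as the 250 bases before the start on the strand of the gene, with each CG pair in capitals. Hnrnpa2b1 (Entrez 53379, chr6:51469895-51470144, minus strand) has 29 pairs and Srpk3 (Entrez 56504, chrX:73774155-73774404, plus strand) has 3. The search covered CG alone, which reads the same on both strands, and a ratio says nothing of methylation in these cells.
Hnrnpa2b1: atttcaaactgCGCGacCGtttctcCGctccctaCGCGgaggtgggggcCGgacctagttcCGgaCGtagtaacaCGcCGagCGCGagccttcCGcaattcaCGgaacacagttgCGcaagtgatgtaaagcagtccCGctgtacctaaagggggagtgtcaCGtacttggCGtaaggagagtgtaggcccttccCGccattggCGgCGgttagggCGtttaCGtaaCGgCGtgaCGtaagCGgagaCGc
Srpk3: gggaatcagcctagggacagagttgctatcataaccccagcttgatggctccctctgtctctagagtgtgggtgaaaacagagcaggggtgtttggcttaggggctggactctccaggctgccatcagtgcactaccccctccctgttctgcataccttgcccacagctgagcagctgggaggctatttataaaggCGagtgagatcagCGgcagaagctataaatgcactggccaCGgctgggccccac

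**Figure D4:**
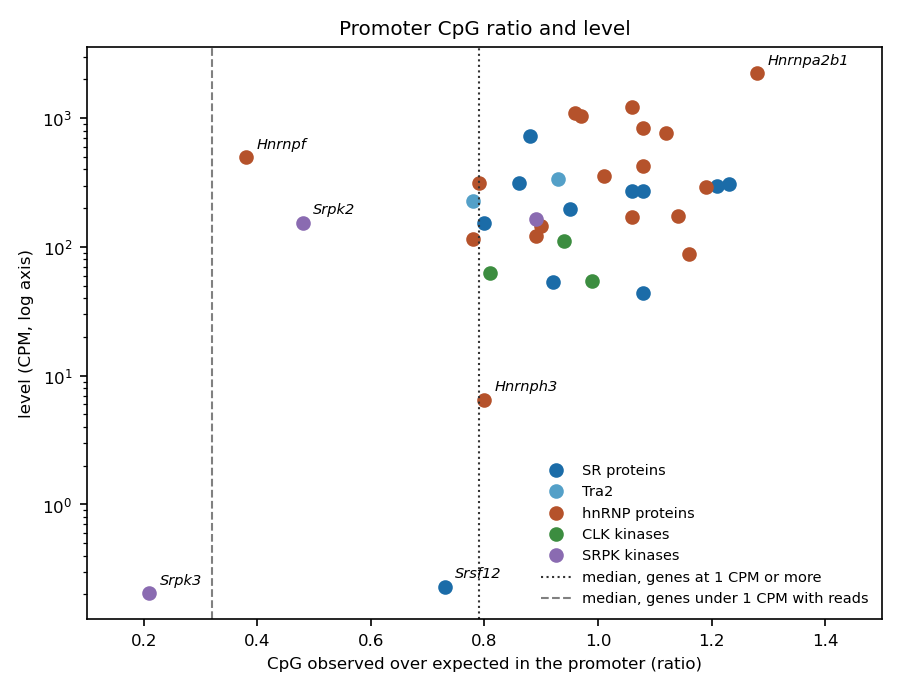
Ratio of observed to expected CG pairs in the promoter of each of the 37 members with an entry, against its level (CPM, log axis), with 1 point per gene coloured by role. Vertical lines mark the medians of genes at 1 CPM or more (0.79) and of genes with reads under 1 CPM (0.32); Hnrnpa2b1 has the highest ratio (1.28) and Srpk3 the lowest (0.21), whereas Srsf12 is as low in level with a ratio of 0.73.

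Other genes of splicing give the setting of these levels. All 7 genes on a list of other kinases, PP1 phosphatases and PP1 regulatory subunits (Ppp1r8 and Ppp1r10) linked to SR proteins reached 1 CPM, with a median of 205 CPM and Ppp1cb, a catalytic subunit of protein phosphatase PP1, highest at 471 CPM. The 3 transportins that carry SR and hnRNP proteins into the nucleus had a median of 360 CPM, with Tnpo1, the importer of Hnrnpa1, at 499 CPM and Tnpo3, the importer of phosphorylated SR proteins, at 360 CPM. The 12 SR-related and speckle genes had a median of 275 CPM and of 27.5 CPM per kb, against 38.5 CPM per kb for the SR genes, with Son at 679 CPM and Srrm2 at 516 CPM. The 10 genes of the U1 snRNP and its partners and the 11 of the U2 snRNP and the 3′ splice site all reached 1 CPM, with medians of 172 and 177 CPM. Per kb of joined exons these lists were not alike. The U2 list had a median of 37.3 CPM per kb, close to the 38.5 of the SR genes. The median of the U1 list lay below the 27.5 CPM per kb of the SR-related and speckle genes. The 7 Sm genes had a median of 61.0 CPM, but of 32.4 CPM per kb, above the 27.5 of the SR-related and speckle genes. The list of other kinases and PP1 genes had a median of 24.4 CPM per kb and the transportins of 27.5 CPM per kb. The 10 genes of nonsense-mediated decay, the pathway that targets mRNAs with a premature stop, all reached 1 CPM. Their median was 108 CPM, or 19.6 CPM per kb, and Upf1, the central helicase of the pathway, was at 133 CPM. Whether the annotated stop-exon transcripts were made or removed in these cells was not tested.

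Of 17 other broadly expressed splicing regulators, 16 were found in the table and all of these reached 1 CPM. Their median was 299 CPM, with Pcbp2, which binds runs of C, highest at 584 CPM. Per kb of joined exons their median was 27.0 CPM per kb, against 38.5 for the SR genes and 53.8 for the hnRNP genes. Of 24 tissue-restricted regulators, 13 reached 1 CPM, with a median of 1.02 CPM. Ptbp3 at 264 CPM, Celf2 at 242 CPM, Rbm20 (known from heart muscle) at 163 CPM and Rbfox2 at 132 CPM were the highest of these. The neuronal Srrm4 was at 0.183 CPM and the epithelial Esrp1 at 0.048 CPM. Srsf12 and Srpk3 lay below all genes of the broad list, of which Rbm4 was the lowest at 24.2 CPM, and so did Hnrnph3 at 6.51 CPM. The tissue-restricted list ran from 0.0306 to 264 CPM. That range holds Srsf12 and Srpk3 but also members as high as Clk1 (249 CPM), so it does not set them apart.

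**Figure D5:**
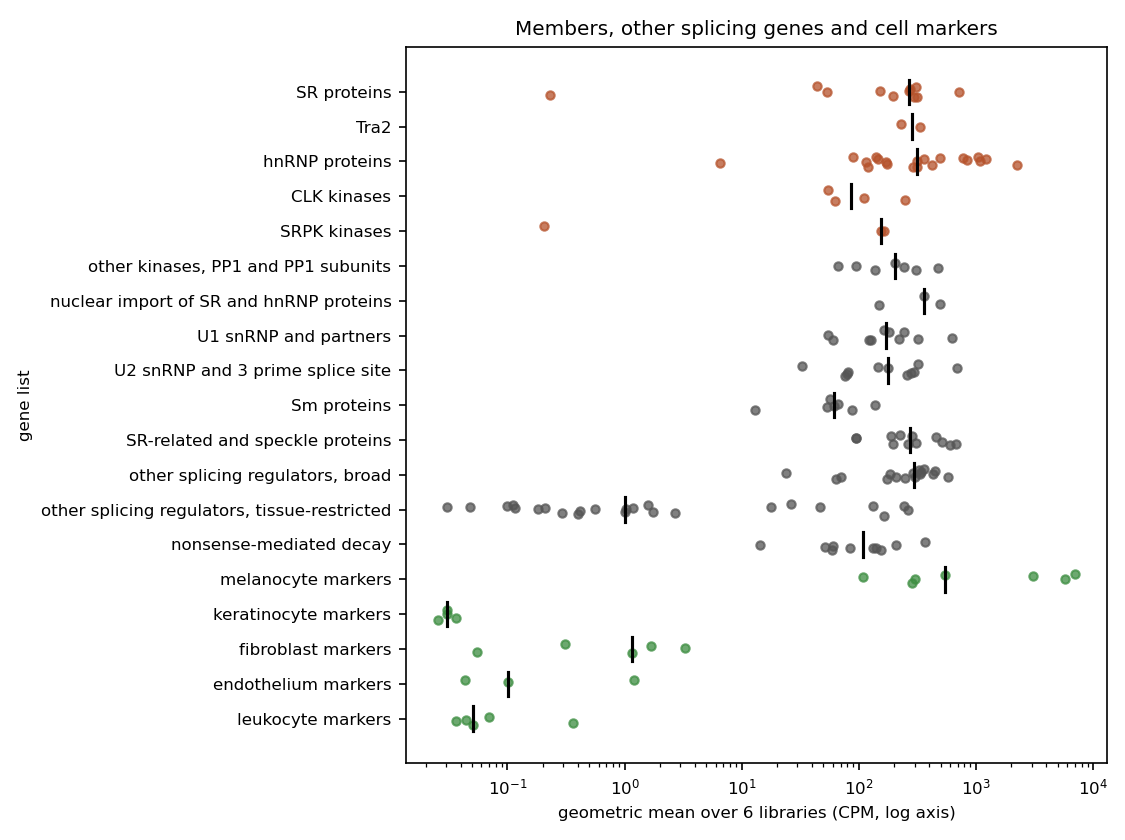
Level of each gene (CPM, log axis) in the 5 member groups (orange), 9 lists of other splicing, transport and decay genes (grey) and 5 marker lists (green), with 1 point per gene, small vertical offsets for legibility and a black bar at each median. Tissue-restricted regulators spread down to 0.0306 CPM around a median of 1.02 CPM, while the other grey lists lie at 13.1 CPM or above.

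Some member levels may include reads of other genes, or lack reads of exons shared with other genes. How counting treated such shared reads is not stated in the sources used here. Exons of Srsf4 overlap those of Gm12992 on the opposite strand over 43.0% of their length, and Gm12992 had 0.409 CPM. Hnrnpab shares 29.1% of its exon length with Phykpl (19.5 CPM), Srsf2 shares 15.6% with Mettl23 (9.39 CPM) and 9.74% with Mfsd11 (90.2 CPM), Clk3 shares 15.2% with Edc3 (47.1 CPM) and Srpk2 shares 6.99% with Kmt2e (158 CPM), all on opposite strands. Hnrnpm shares 14.7% with March2 (15.2 CPM) on the same strand. The library kit keeps the strand, but the sources used here do not say whether counting used it. Pseudogene copies of Hnrnpk, Hnrnpa1 and Hnrnpa3 have entries of their own in the table, and reads of such copies and their parents cannot always be told apart.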

How the data were processed

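RNA of 6 B16F10 libraries (3 OZO, 3 OLO) was sequenced. According to the methods and processing notes, the authors aligned reads to mm10 with HISAT2 (2.1.0) and counted with featureCounts (2.1.1), and limma-voom (limma 3.58.1) gave the table. The deposited value used is the average log2 CPM of each gene over all libraries, the authors' mean. The other 5 columns (log2 fold change, moderated statistic, p-value, adjusted p-value and log odds of the authors' comparison) were not used, so no test was made.

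Genes without reads share the lowest average, log2 of 0.5 reads over the scaled library size, which gave the geometric mean library size. The depth of each library is unknown. The step was run on simulated data made with the same 0.5 reads, in which genes at the lowest average were given no reads. It therefore could not test whether the lowest average stands for no reads in all 6 libraries. Exon lengths and transcript kinds came from GENCODE M21 and promoters from RefSeq (both GRCm38). The annotation used for counting is not given in the sources used here. Every member is named with its level. Pairs compared were closely related members. Members and lists were chosen with earlier results of these data known. Python 3.11.15 with pandas 2.3.3 was used.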

Additional observations from a re-analysis of the deposited data

Results flagged for a closer look

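The symbol rule leaves out pseudogenes of the members that have entries of their own. Of 6 such entries, 5 lay above the level that a count of 0 allows (3 reads in a library of average size, or 0.153 CPM). The Hnrnpk pseudogene Gm7964 had 86.9 CPM, which was 10.3% of the level of Hnrnpk, and Gm4130, another copy of Hnrnpk, had 4.11 CPM. The Hnrnpa1 pseudogene Gm10052 had 76.1 CPM, or 7.35% of the level of Hnrnpa1, and Gm5643 had 0.634 CPM. The Hnrnpa3 pseudogene Gm6793 had 34.4 CPM, or 11.8% of the level of Hnrnpa3. The part of reads shared with the parent genes in these values was not tested.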

How the results depend on the processing

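The number of members past the limit was 38 at 1 CPM, 37 at 10 CPM and 40 at 1 read or more. The median percentile of members was 97.1 among all genes and 97 among genes with a symbol, against 96.3 among genes with reads, since genes without reads rank below every member. The median level per kb was 38.1 CPM with all exons joined, 61.8 CPM with the longest transcript and 66.2 CPM with the longest protein-coding transcript (a length chosen after seeing the data), and the median was 239 CPM without length, because a shorter length divides the same reads. None of the 10 pair ratios changed direction under these lengths, but orders outside these pairs did, among them Srsf1 with Srsf2 and Srsf5. Of the tissue-restricted regulators, 7 of 24 reached 10 CPM and all 24 had reads. Other treatments of single libraries (DESeq2 against edgeR, size factors, filters, pseudocounts, leaving out a library) were not run, because each value is an average over all libraries. No paired analysis was possible because of the same averaging. The averages carry no spread, so small differences between members cannot be judged, and Srsf12 and Srpk3 rest on a few reads per library.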
